A study of Rattus norvegicus with 16 samples.

Results

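The genes of the mitochondrial respiratory chain were followed in cells of the NG108 line. The labels describe NG108 as rat neuronal cells; it is widely known as a hybrid made from mouse neuroblastoma and rat glioma cells. The members were all probe sets whose platform annotation gives 1 gene symbol that starts with Nduf, Sdh, Uqcr, Atp5 or Cox with a digit from 4 to 8, or that is Cyc1 or Cycs. This rule uses names only and no measured value. It found 65 probe sets for 38 genes, out of 972 gene probe sets and 549 singly named genes in the table. Complex I was represented by 35 probe sets of 21 genes, complex III by 5 probe sets of 4 genes and complex IV by 25 probe sets of 13 genes. Ndufa4 was counted with complex IV, to which its protein is now assigned despite its name. The rule found no probe set for complex II, complex V or Cycs, and these are not analysed here.

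The 8 control samples are NG108 cultures given 0.25% dimethyl sulfoxide (DMSO), and the 8 treated samples are NG108 cultures given 4400 ng/ml of the antimalarial drug mefloquine, both for 2 hours. Total RNA, 10 µg per array, was hybridised to Affymetrix rat arrays. The labels do not say that the numbered samples of a group came from separate cultures, so p-values refer only to the spread between these samples, part or all of it possibly technical. They also do not say whether the treated cultures received DMSO. The probes are for rat sequences, and how they read mouse transcripts of the hybrid genome was not tested.

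The respiratory chain passes electrons from NADH and succinate through ubiquinone and cytochrome c to oxygen, and complexes I, III and IV pump protons across the inner mitochondrial membrane as they do so. Complex V uses the proton gradient to make ATP, on which neurons depend heavily for ion pumping. Apart from complex II, these complexes combine a few subunits encoded in mitochondrial DNA with many encoded in the nucleus. Promoters of the nuclear genes are known for sites of the ETS factor GABPA, also called NRF-2, of NRF1 and of YY1.

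What the members share in sequence was read from the RefSeq promoter windows of the rat assembly GRCr8, from 250 bases before to 50 bases after the start of each gene. Of the 38 genes, 31 matched by gene identifier. The ETS core CCGGAAG, on either strand, was in 8 of the 31 windows (25.8%), against 9.2% of 27457 rat windows and 11.2% of 438 windows of genes on this array. The YY1 core AAGATGG was also in 8 windows (25.8%), against 7.3% of all windows and 8.2% of those on the array. These counts describe the windows and were not tested. The windows with a match were those of Cox4i1, Cox5b, Cox7a2, Cox8a, Ndufa6, Ndufs1, Ndufs8 and Uqcrc2 for the ETS core, and Cox8a, Ndufa3, Ndufa6, Ndufa9, Ndufb8, Ndufs4, Ndufs7 and Uqcrc2 for the YY1 core. Both cores were in 3 windows. The NRF1 core GCATGCG was in 2 windows (6.5%, against 3.5% of all) and the SP1 box GGGCGG in 11 (35.5%, against 34.9% of all and 57.3% of those on the array). A TATA box, TATAAA, was in 1 window (3.2%, against 14.3% of all), that of the muscle isoform Cox8b. Matches to different motifs overlapped in 0 of the 31 windows.

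These 3 windows are shown as examples of the 3 kinds of match, although 18 of the 31 windows hold neither the ETS nor the YY1 core: Cox4i1 (chr19:65630133-65630432, plus strand) has a pair of ETS cores, both read on the opposite strand, just after the start, Ndufs7 (chr7:10110449-10110748, minus strand) has the YY1 core just after the start, and Cox8b (chr1:205408224-205408523, minus strand) has the TATA box. Each is written 5′ to 3′ along its gene, with matches to the ETS, YY1, NRF1 and TATA letters on either strand in capitals.
Cox4i1: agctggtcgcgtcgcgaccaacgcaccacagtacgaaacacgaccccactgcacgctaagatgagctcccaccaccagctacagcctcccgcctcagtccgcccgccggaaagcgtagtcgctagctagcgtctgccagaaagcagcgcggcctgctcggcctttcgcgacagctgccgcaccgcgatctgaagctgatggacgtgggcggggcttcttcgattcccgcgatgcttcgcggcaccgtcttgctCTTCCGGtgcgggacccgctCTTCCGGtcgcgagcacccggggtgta
Ndufs7: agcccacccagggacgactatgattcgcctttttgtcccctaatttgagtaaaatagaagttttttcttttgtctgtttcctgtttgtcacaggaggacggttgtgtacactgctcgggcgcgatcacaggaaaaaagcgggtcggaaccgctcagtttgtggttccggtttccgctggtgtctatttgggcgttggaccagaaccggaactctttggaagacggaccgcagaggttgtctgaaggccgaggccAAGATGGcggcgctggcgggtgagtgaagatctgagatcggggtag
Cox8b: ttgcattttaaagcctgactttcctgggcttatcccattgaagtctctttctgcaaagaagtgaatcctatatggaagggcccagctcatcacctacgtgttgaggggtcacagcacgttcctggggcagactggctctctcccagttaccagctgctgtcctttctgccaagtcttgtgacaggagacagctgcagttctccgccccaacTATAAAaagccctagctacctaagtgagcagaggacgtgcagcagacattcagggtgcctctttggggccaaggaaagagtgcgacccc

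The deposited values are linear intensities, and 26.9% of all values in the table were at or below 0. Values under a floor of 426.5, the 25th percentile of the positive values, were set to it before log2 was taken, so differences of dim probe sets depend on the floor. With the floor at percentile 10, for example, Ndufs8 by AA685112_at went from -0.01 to 0.18. A probe set was tested when 8 or more of the 16 arrays exceeded the floor, whichever the group, which kept 50 member probe sets of 34 genes among 545. Of these 50, 43 were above the floor on all arrays. Of the other 15 probe sets, 9 were above it on no array, among them 3 of the 4 for the core subunit Ndufs8. Ndufs1, Cox6c, Cox6c-ps1 and Cox8b had no tested probe set. None of the 15 neuronal marker genes looked for had a probe set of its own. Of the 9 glial markers looked for only Vim and Clu had a probe set, and both were above the floor on all 16 arrays. With no neuronal marker to set beside them, they do not tell the cell type. No striated muscle marker other than the muscle isoforms of complex IV had a probe set. Each value is a level relative to the RNA of a whole culture, so fewer expressing cells and less RNA per cell cannot be told apart. One control array, DMSO control 3, stood apart in its control ratios, and was already known from earlier results of these data to stand apart. Its beta-actin 3′ over 5′ ratio was 21.3 and its GAPDH ratio 4.62, where the other 15 arrays lay between 1.31 and 2.67 and between 1.02 and 1.48. The correlation of each array with the others, as a median, was 0.855 for this array, 0.901 and 0.913 for mefloquine 1 and 2, and 0.925 to 0.945 for the other 13. Results are therefore given with and without these arrays. Mefloquine 1 and 2 were set apart by the measured values themselves, not by their control ratios. Where they hold the lowest treated values of a probe set, leaving them out raises its difference by construction.

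No respiratory chain probe set passed the test between mefloquine and DMSO cells. In the limma fit 0 of 50 were called at an adjusted p under 0.05, where 1.28% of all 545 probe sets were, and 1 of 50 had an unadjusted p under 0.05, where 4.22% of all did. The log2 differences, mefloquine minus DMSO, ran from -0.35 for Ndufb4 to 0.23 for 1 of 3 tested Ndufb8 probe sets. The 95% intervals of 47 of the 50 stayed within a 2-fold change (94%, against 87.7% of all tested probe sets), and those of 37 within a 1.5-fold change (74%, against 52.1%). Above the floor on all arrays were 43 of the 50 members and 351 of all 545. The part of signal level in the interval shares was not tested. The median absolute differences were nearly equal, 0.12 for members and 0.13 for all tested probe sets. The groups of 8 intensities overlapped for all 50, while they were apart for 0.55% of all tested probe sets.

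Below 0 were 33 of the 50 differences (66%), with a median of -0.08, while 53.6% of all tested probe sets were below 0 with a median of -0.01. By complex, 20 of 27 differences were below 0 in complex I (median -0.12), 2 of 5 in complex III (median 0.03) and 11 of 18 in complex IV (median -0.04). Without DMSO control 3 the same number, 33 of 50, were below 0, but the median was -0.03 and that of all tested probe sets -0.05, with 62.2% of them below 0. The medians by complex were then -0.05, -0.03 and -0.01, and 10 of the 50 probe sets had changed sign. The share of all tested probe sets that changed sign is not given here. In that fit 0 members were called by limma (1.1% of all), and 1 had an unadjusted p under 0.05 (8.07% of all). Without mefloquine 1 and 2 as well, the member median was 0.01 with 23 of 50 below 0, 0 members were called (0.917% of all) and 0 had an unadjusted p under 0.05 (5.32% of all).

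**Figure D1:**
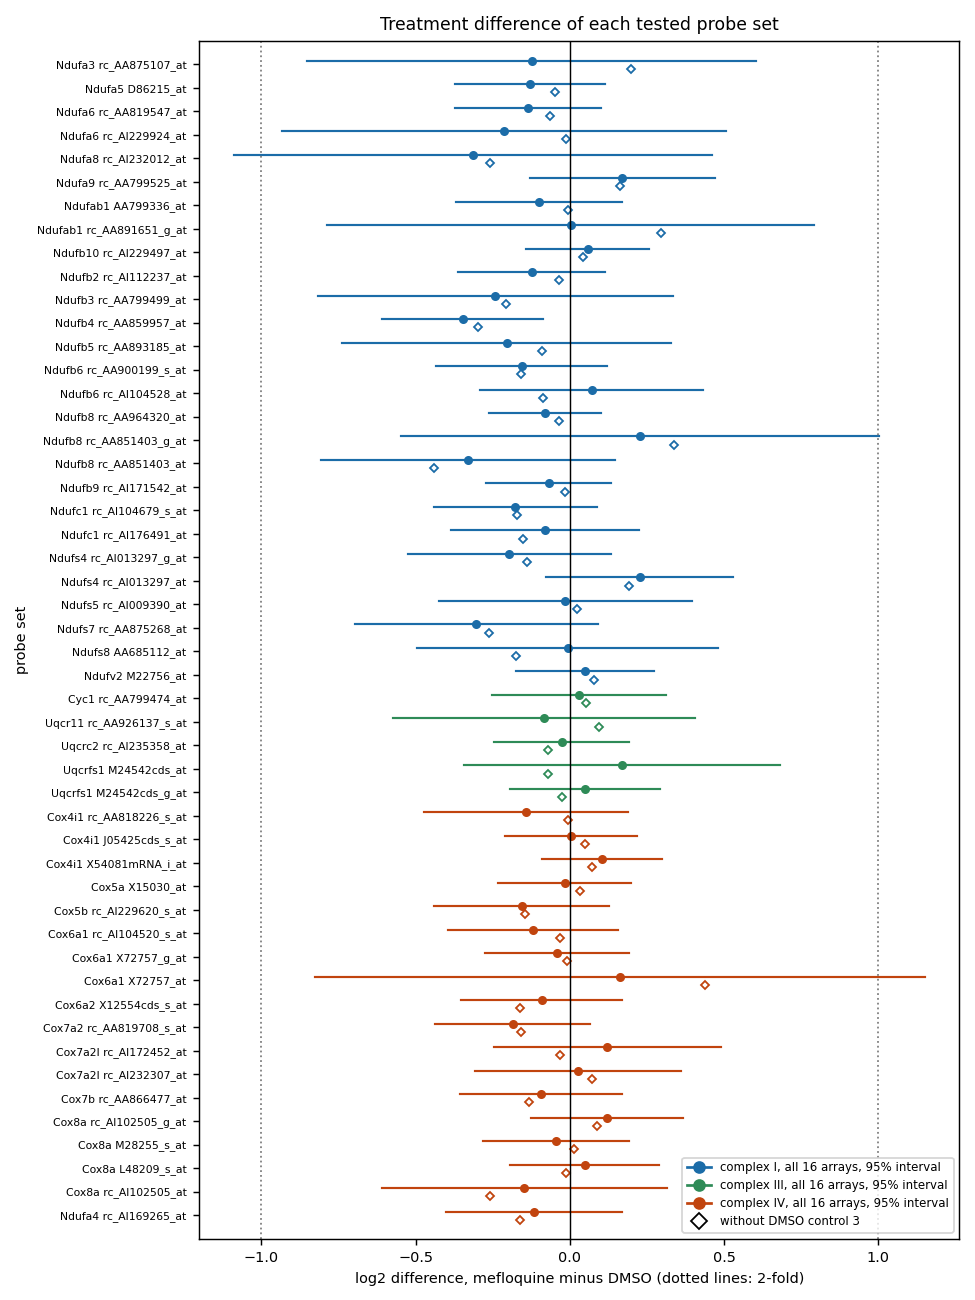
Treatment difference of the 50 tested respiratory chain probe sets on the log2 scale (x axis, mefloquine minus DMSO), one line per probe set; filled circles and bars are the limma estimate and its 95% interval on all 16 arrays, open diamonds the estimate without DMSO control 3. All circles lie between -0.35 and 0.23, and the bars of 47 probe sets stay within the dotted lines at a 2-fold change.

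**Figure D2:**
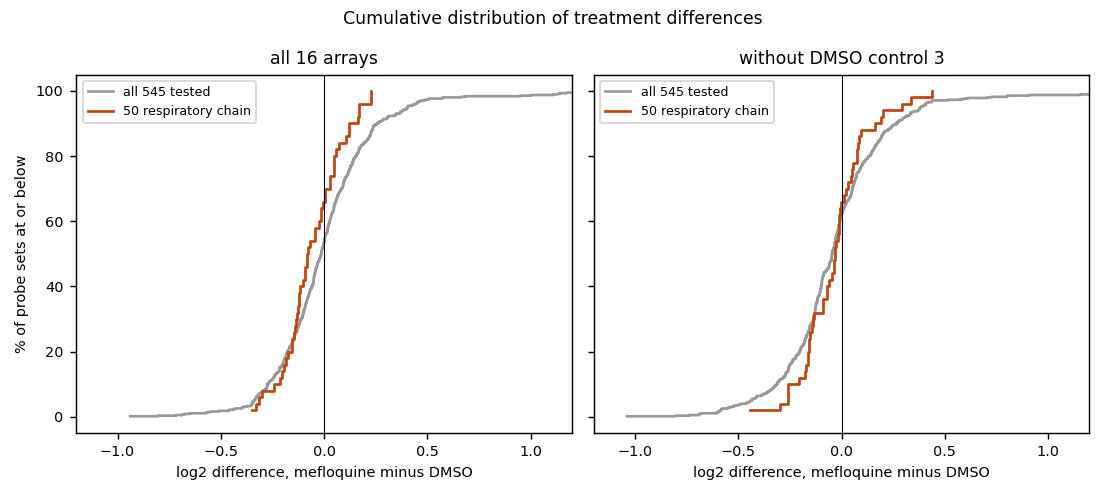
Cumulative share of probe sets (y axis, percent) by log2 treatment difference (x axis) for the 50 respiratory chain probe sets and for all 545 tested, on all arrays (left) and without DMSO control 3 (right). On all arrays 66% of the members and 53.6% of all probe sets lie below 0; without that array the shares are 66% and 62.2%.

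In complex I, which takes electrons from NADH, the smallest p belonged to Ndufb4, an accessory subunit of the membrane arm. The lowest, median and highest of its 8 intensities were 7507, 8231 and 10626 in DMSO cells and 5091, 6959.9 and 8527 in mefloquine cells. Of the mefloquine arrays 6 lay below the lowest DMSO array, and mefloquine 6 and 7 lay within the DMSO range. The means were 8441 ± 946 and 6707 ± 1253 (SD, n = 8 each), and the log2 difference was -0.35 ± 0.12 (SE), with a 95% interval of -0.61 to -0.09. It did not pass (limma, adjusted p = 0.514; exact permutation p = 0.00435, two-sided, before adjustment). The lowest treated arrays were mefloquine 1 and 2, at 5091 and 5112, and the highest control array was DMSO control 3, at 10626. Without DMSO control 3 alone the difference was -0.30, with a 95% interval of -0.54 to -0.06 (limma, adjusted p = 0.516). Leaving out the lowest treated and the highest control arrays raises the difference by construction. Without all 3 arrays the difference was -0.17 (limma, adjusted p = 0.933), and in replicates 6 to 8 alone it was -0.06.

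Among the core subunits of the peripheral arm, where the redox centres lie, Ndufs7 holds the iron-sulfur cluster that passes electrons to ubiquinone. Its intensities (lowest, median, highest) were 8116, 10418 and 12473 in DMSO cells and 4458, 9591 and 11290.2 in mefloquine cells, with a log2 difference of -0.30 ± 0.19 (SE; limma, adjusted p = 0.982). The mefloquine values reach below the DMSO range, and the lowest 2 of them, 4458 and 5453, were those of mefloquine 1 and 2. Without DMSO control 3 alone the difference was -0.26, and without all 3 arrays it was -0.01. Ndufv2, part of the NADH-oxidising module, was at 5655, 7260.3 and 8752 and 6589, 7527 and 8041, a difference of 0.05 ± 0.11, or 0.08 without DMSO control 3. Ndufs8, another iron-sulfur subunit, was measured by 1 of its 4 probe sets, at 1016 ± 481 and 974 ± 138 (SD, n = 8 each). Its difference was -0.01 ± 0.23, and -0.18 without DMSO control 3, whose value of 145 was the lowest of its group and under the floor. The probe set of Ndufs1, the largest core subunit, was above the floor on 2 of 16 arrays and was not tested.

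The accessory subunits stabilise and help to assemble the complex. Ndufs4, whose loss is known to cause Leigh syndrome, differed by -0.20 ± 0.16 and 0.23 ± 0.14 (log2, SE) by its 2 tested probe sets, which thus lay on opposite sides of 0 (without DMSO control 3, -0.14 and 0.19). The value of Ndufa9, which sits near the ubiquinone site, was 0.17 ± 0.14: its intensities (lowest, median, highest) were 2491, 3060.4 and 3670.5 in DMSO cells and 2090.4, 3566 and 4294 in mefloquine cells. The lowest treated value was that of mefloquine 8, the highest that of mefloquine 1, and the groups overlap. Without DMSO control 3 the difference of Ndufa9 was 0.16. Ndufs5 differed by -0.01 ± 0.19, Ndufb10 by 0.06 ± 0.09 and Ndufb9 by -0.07 ± 0.10, all with intervals within a 1.5-fold change. They were 0.02, 0.04 and -0.02 without DMSO control 3. The value of Ndufs5 was -0.31 in replicates 1 to 5 alone, 0.47 in replicates 6 to 8 alone and 0.27 without the 3 arrays that stood apart. Ndufa5, Ndufa6 by rc_AA819547_at, Ndufb2 and Ndufb6 by rc_AA900199_s_at, further small subunits, lay at -0.13, -0.13, -0.12 and -0.16, and without DMSO control 3 at -0.05, -0.06, -0.04 and -0.16. Ndufc1, a small membrane subunit, was at -0.18 ± 0.13 and -0.08 ± 0.14 by its 2 probe sets, and at -0.17 and -0.15 without that array. The acyl carrier protein Ndufab1, which also serves mitochondrial fatty acid synthesis, was at -0.10 ± 0.13 and 0.004 ± 0.37. Leaving out DMSO control 3, the highest array for both, gave -0.01 and 0.29.

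Several complex I probe sets were low on mefloquine 1 and 2. Ndufa8, a subunit on the intermembrane side, had intensities of -12.0 and 196 on these arrays, both under the floor, while the other 6 mefloquine arrays lay between 1445 and 2452 and the DMSO arrays between 816 and 2291. Its difference of -0.31 ± 0.37 (log2, SE) was -0.26 without DMSO control 3 and 0.27 without the 3 arrays that stood apart. Ndufb3 was at 1129 and 2544 on mefloquine 1 and 2 and between 3758 and 5597 on the other mefloquine arrays. Without DMSO control 3 alone, Ndufb3 and Ndufb5, which belong to the membrane arm, were at -0.21 and -0.09. Without the 3 arrays both changed sign, from -0.24 to 0.15 and from -0.20 to 0.21. The opposite held for Ndufb8 by its probe set rc_AA851403_g_at, with 4872 on mefloquine 1 against at most 2039 elsewhere. Without the 3 arrays its difference went from 0.23 to -0.12, and it was 0.34 without DMSO control 3 alone. By rc_AA964320_at Ndufb8 had intensities of 15228, 16676 and 21140.3 in DMSO cells and 14962, 16172 and 16669.8 in mefloquine cells, and its difference of -0.08 ± 0.09 had the smallest error of all members. The probe set rc_AA851403_at of Ndufb8, above the floor on 12 arrays, lay at -0.33 ± 0.23, so the 3 differences lay on both sides of 0. Without DMSO control 3, rc_AA851403_at was at -0.44 and rc_AA964320_at at -0.03. The second tested probe sets of Ndufa6 and Ndufb6 were at -0.21 ± 0.34 and 0.07 ± 0.17, which became -0.01 and -0.09 without DMSO control 3, the latter with its sign turned. Ndufa3 was above the floor on 8 of 16 arrays, and its difference was -0.12 ± 0.34 with and 0.20 without DMSO control 3.

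Complex III hands electrons from ubiquinol to cytochrome c. Its Rieske iron-sulfur protein, Uqcrfs1, was measured by 2 probe sets. By M24542cds_at the intensities (lowest, median, highest) were 4324, 15438 and 19306 in DMSO cells and 12216, 15436 and 18334 in mefloquine cells, and by M24542cds_g_at 9153, 13630.4 and 14697 and 11553, 14504 and 15396. In both the lowest of all 16 arrays was DMSO control 3, with 4324 and 9153, and the other arrays of the groups overlapped. The differences of 0.17 ± 0.24 and 0.05 ± 0.12 (log2, SE) turned to -0.07 and -0.03 without that array. Cyc1, the cytochrome c1 subunit, was at 16305, 18114 and 26498 in DMSO cells and 16601, 19709 and 24700.1 in mefloquine cells, with a difference of 0.03 ± 0.13 and a 95% interval of -0.25 to 0.31. The ranges of Cyc1 in the groups nearly coincide, and its difference was 0.05 without DMSO control 3. Uqcrc2, a core subunit of the matrix side, differed by -0.03 ± 0.10 (-0.07 without DMSO control 3), and the small subunit Uqcr11 by -0.08 ± 0.23, or 0.09 without DMSO control 3, where it was 15202 against 4088 to 8230.2 on the other DMSO arrays.

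Complex IV, cytochrome c oxidase, reduces oxygen to water. Cox4i1, the subunit through which ATP is known to inhibit the enzyme, had 3 probe sets, with intensities (lowest, median, highest) of 37032, 41225 and 88517 in DMSO cells and 36779, 41014 and 48091 in mefloquine cells by rc_AA818226_s_at. By J05425cds_s_at they were 34898, 38617 and 48988 and 33571, 40723 and 43655, and by X54081mRNA_i_at 9084, 10596 and 11865 and 9896, 11145 and 13171. DMSO control 3 was the highest array of its group by the first and second probe sets and the lowest by the third. The log2 differences were -0.14 ± 0.16, 0.004 ± 0.10 and 0.11 ± 0.09 (SE), and without DMSO control 3 they were -0.005, 0.05 and 0.07. All 3 intervals lay within a 1.5-fold change.

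Cox5a and Cox5b, small nuclear subunits near the catalytic core, differed by -0.02 ± 0.10 and -0.16 ± 0.13 (log2, SE), and without DMSO control 3 by 0.03 and -0.14. Cox5a lay at 29108, 30824 and 41165 in DMSO cells and 28670.5, 32583 and 37013 in mefloquine cells (lowest, median, highest), a near complete overlap. Cox7a2 differed by -0.18 ± 0.12, Cox7b by -0.09 ± 0.12 and Ndufa4 by -0.12 ± 0.14, which without the 3 arrays that stood apart were -0.02, -0.05 and -0.01. With DMSO control 3 alone left out they were -0.16, -0.13 and -0.16. Cox7a2l, a factor that joins complexes III and IV into supercomplexes, was at 0.12 ± 0.17 and 0.03 ± 0.16 by its 2 probe sets. The first turned to -0.03 without DMSO control 3, and the second was then 0.07. Cox8a, the ubiquitous form of the smallest subunit, had 4 probe sets at 0.12 ± 0.12, -0.04 ± 0.11, 0.05 ± 0.12 and -0.15 ± 0.22, on both sides of 0. Without DMSO control 3 they were 0.09, 0.01, -0.01 and -0.26, with the second and the third turned in sign.

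Cox6a1 is the ubiquitous form of a subunit whose other form, Cox6a2, belongs to heart and skeletal muscle. By rc_AI104520_s_at and X72757_g_at Cox6a1 differed by -0.12 ± 0.13 and -0.04 ± 0.11 (log2, SE), or -0.03 and -0.01 without DMSO control 3. By X72757_at its intensities (lowest, median, highest) were 229.9, 1338 and 4705 in DMSO cells and 559, 1621 and 3996 in mefloquine cells. The highest array of each group was DMSO control 3, at 4705, and mefloquine 1, at 3996, and the groups overlapped. Its difference of 0.16 ± 0.47 had the largest error of all members, with a 95% interval of -0.83 to 1.15, and it was 0.44 without DMSO control 3. For Cox6a2, X12554cds_s_at was above the floor on all 16 arrays, with 3938 ± 655 in DMSO and 3676 ± 445 in mefloquine cells (SD, n = 8 each) and a difference of -0.09 ± 0.12 (-0.16 without DMSO control 3). Its other probe sets were above the floor on 5 arrays and on none, so the 3 do not give 1 answer on whether the muscle form is present. Cox8b, also a muscle form and the member with a TATA box, was above the floor on 6 arrays by 1 probe set and on none by the other. Cox6c, a further subunit, was above the floor on 7 arrays by M27467_at, at 393, 488 and 719 in DMSO and 226, 293 and 603 in mefloquine cells, with overlapping ranges close to the floor and no test in the fit used here. Its mefloquine median of 293 lay below its lowest DMSO value of 393.

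**Figure D3:**
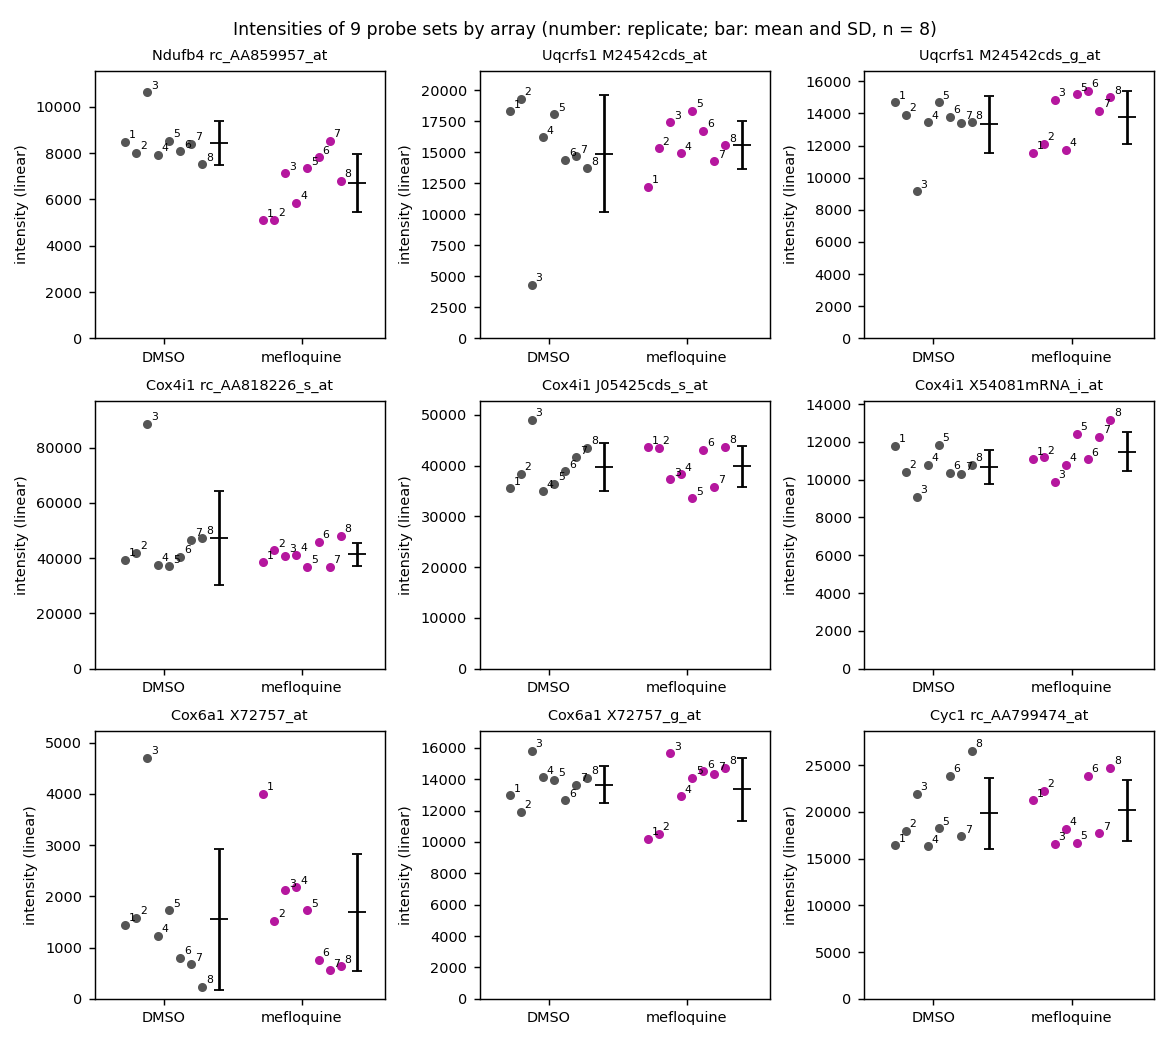
Linear intensity (y axis) of 9 respiratory chain probe sets on each array of the DMSO and mefloquine groups; numbers are replicate numbers, and the bars beside the points give mean and SD (n = 8). DMSO control 3 is the highest DMSO array for Ndufb4 (10626) and for Cox4i1 by rc_AA818226_s_at (88517) and the lowest for Uqcrfs1 (4324 by M24542cds_at), and the groups overlap in every panel.

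The members varied most on the 3 arrays that stood apart. DMSO control 3 held the highest DMSO value for 23 of the 50 tested probe sets (46%) and the lowest for 15 (30%), while over all 545 it held the highest for 24% and the lowest for 39.8%. The median absolute deviation of this array from the mean of the other DMSO arrays was 0.449 on the log2 scale, and 10 probe sets lay over 1 away. The matching values over all tested probe sets are not given here, so whether this deviation is particular to the members was not tested. By complex it was the highest DMSO array for 14 of 27 probe sets of complex I, 1 of 5 of complex III and 8 of 18 of complex IV, and the lowest for 4, 3 and 8 of them. The median over the members was 0.23 above the DMSO mean on this array and -0.22 and -0.15 on mefloquine 1 and 2, and between -0.09 and 0.08 on the other 13 arrays. For all tested probe sets the medians of the 3 arrays were -0.24, 0.02 and -0.05. Mefloquine 1 and 2 lay below the mean of mefloquine 3 to 8 for 36 of the 50 members (72%), against 51.7% of all tested probe sets. The part of RNA quality in these shifts was not tested. The beta-actin ratios of mefloquine 1 and 2, 1.70 and 1.95, and their GAPDH ratios, 1.26 and 1.27, all lay within the range of the other arrays.

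Of the 11 genes with more than 1 tested probe set, 7 had treatment differences on both sides of 0 and 6 had DMSO control 3 above the other DMSO arrays by 1 probe set and below them by another. For Cox4i1 that deviation ran from -0.26 to 1.10 on the log2 scale, for Cox8a from -0.88 to 0.45, for Ndufb8 from -0.88 to 0.87 and for Cox7a2l from -1.23 to 0.36. In Uqcrfs1 both probe sets were lower on that array, at -1.91 and -0.60 from the others, and in Ndufab1 both were higher, at 2.33 and 0.74. The median SD of the members among DMSO arrays was 0.242 on the log2 scale, and 0.167 without that array, while among mefloquine arrays it was 0.225.

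**Figure D4:**
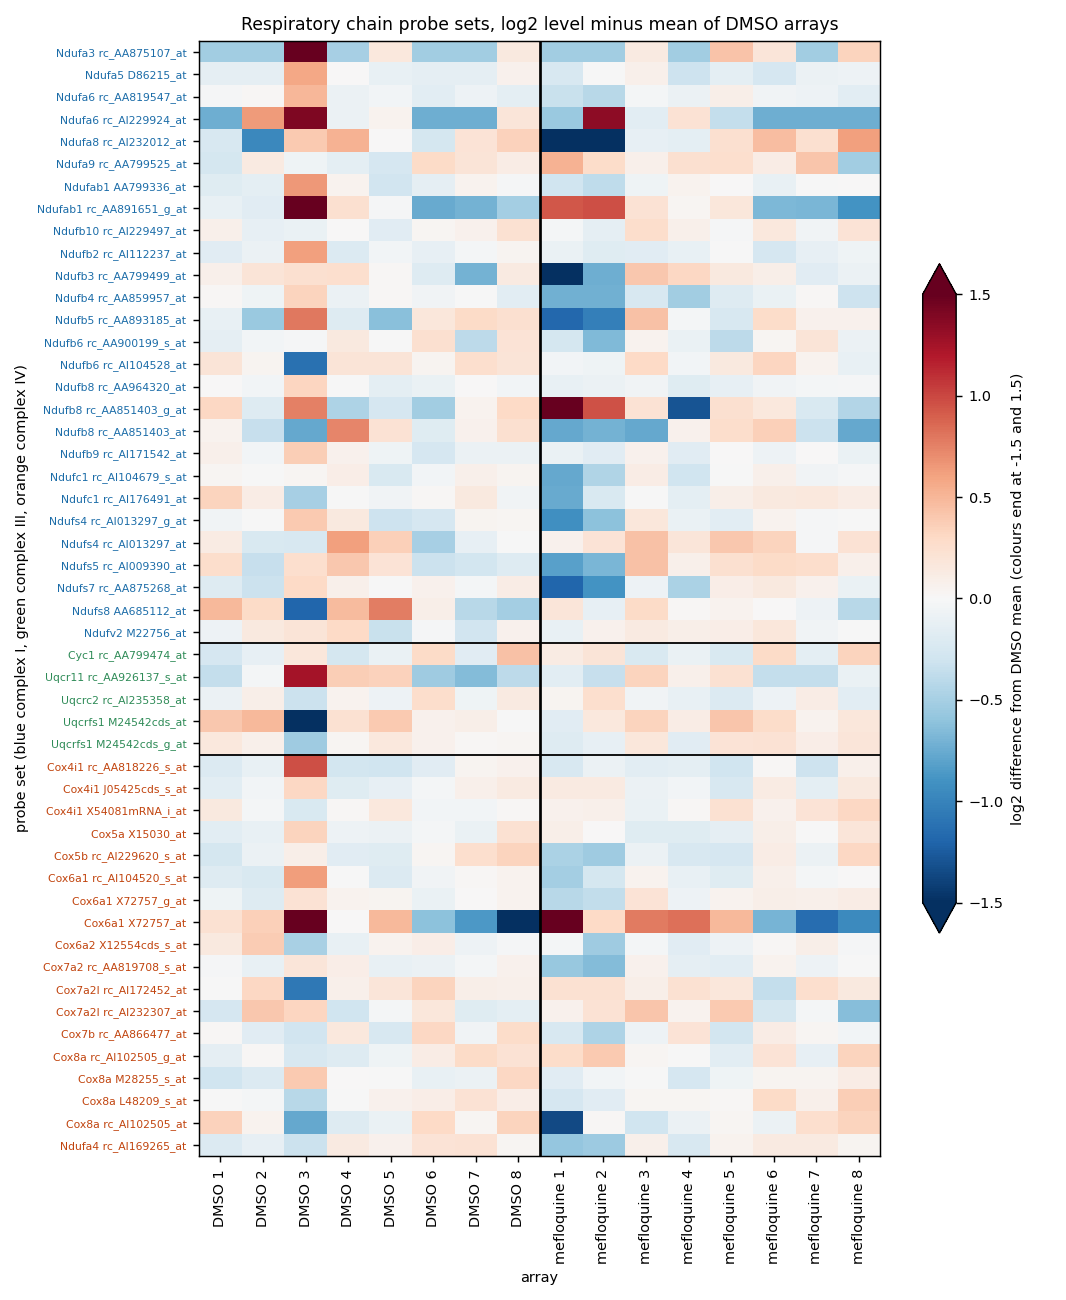
Log2 level minus the mean of the 8 DMSO arrays (colour, red above and blue below) for the 50 tested respiratory chain probe sets (rows, by complex) on the 16 arrays (columns; the vertical line separates DMSO from mefloquine). The columns of DMSO control 3 and of mefloquine 1 and 2 hold the strongest colours, with medians of 0.23, -0.22 and -0.15.

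**Figure D5:**
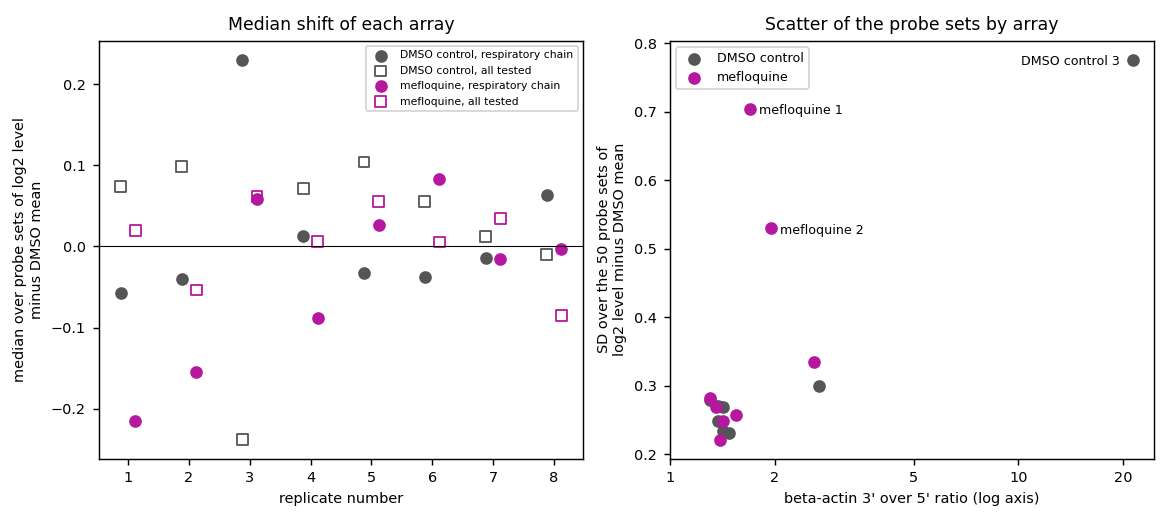
Left, median over the 50 respiratory chain probe sets (filled circles) and over all 545 tested (open squares) of the log2 level minus the DMSO mean, by replicate number. Right, SD of that difference over the 50 probe sets against the beta-actin 3′ over 5′ ratio (log axis), one point per array. DMSO control 3 and mefloquine 1 and 2 have SDs of 0.776, 0.705 and 0.530, and the other 13 arrays lie between 0.221 and 0.335. The SD over all tested probe sets is not shown.

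Arrays numbered 6 to 8 and 1 to 5 had been seen to differ in these same values, and the labels give no batch, so differences between these ranges are a description and no independent test. With treatment in the model, limma counted 3 of 50 members (6%) as differing between the ranges, where 12.5% of all tested probe sets did. The difference, replicates 6 to 8 minus 1 to 5, was -1.68 on the log2 scale for Cox6a1 by X72757_at, but 0.09 by X72757_g_at, named for the same sequence accession. For Ndufab1 it was -1.14 by rc_AA891651_g_at and 0.03 by AA799336_at. For Cox5b it was 0.38, with DMSO intensities from 24032 to 36459 of which the highest were numbers 7 and 8. Without the 3 arrays that stood apart the count was 7 members (14%, against 20.6% of all), these 3 and Cyc1, Uqcr11, Ndufb3 and Ndufs8.

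The treatment differences of the members had a median of -0.15 within replicates 1 to 5, which hold all 3 arrays that stood apart, and of 0.002 within replicates 6 to 8. In complex I these medians were -0.17 and -0.005. An interaction term tested if the ranges differed in their response to mefloquine: 0 members passed in limma (0% of all tested probe sets, lowest adjusted p of a member 0.99), and 1 of 50 members, Ndufa9, had an unadjusted p under 0.05 (4.22% of all). Ndufa9 was at 0.39 in replicates 1 to 5 and -0.20 in replicates 6 to 8.

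Other mitochondrial and energy genes were few on this array. Of the subunits encoded in mitochondrial DNA, COX3 was at 3034 ± 709.8 in DMSO and 2545 ± 1423 in mefloquine cells (SD, n = 8 each). Its log2 difference was -0.46 ± 0.38 (SE). COX2 lay at 819.8 ± 217 and 937 ± 328, a difference of 0.18 ± 0.22. The differences were -0.43 and 0.14 without DMSO control 3. Neither of these 2 complex IV subunits passed. Of the 18 carriers and channels looked for, only Ppif, cyclophilin D of the permeability transition pore, had a probe set, at -0.27 ± 0.23, or -0.17 without DMSO control 3. Of the fatty acid oxidation list, 0 of 7 tested probe sets were called, and the brightest of each gene lay at -0.09 ± 0.12 for Hadha, 0.11 ± 0.23 for Decr1, -0.15 ± 0.24 for Acadl and -0.07 ± 0.41 for Etfdh. The values without DMSO control 3 were -0.11, 0.24, -0.05 and -0.14. The glycolytic Gapdh was at 0.15 ± 0.18 (0.14 without it). No gene of the citric acid cycle list had a probe set of its own. In the biogenesis and stress list 1 of 7 tested probe sets was called, where 1.28% of all 545 were. It rose and was that of the stress transcription factor Ddit3 (2.22 ± 0.26, limma adjusted p = 9.28e-05). No other tested probe set of this list was called in either direction. The mitochondrial chaperones Hspd1 and Hspa9 lay at -0.13 ± 0.13 and 0.25 ± 0.32 and the manganese superoxide dismutase Sod2 at -0.20 ± 0.23. Without DMSO control 3 Ddit3 was at 2.42, Hspd1 at -0.01, Hspa9 at -0.03, with its sign turned, and Sod2 at -0.34. The liver marker Tat was close to the floor, at 570.0 ± 355 and 890.1 ± 539, and did not pass.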

How the data were processed

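Sample titles gave the group and replicate number of each array. The authors deposited 1 linear intensity per probe set and array, scaled by standard chip factors and otherwise untransformed, per the labels; the scanner software and a genome build are not given in the sources used. All 1031 rows set the floor, and 59 control rows were not tested. Of the gene probe sets 821 carried 1 symbol in the platform annotation. The members and lists were chosen with earlier results of these data known. By rule all members were named, and of other lists at most 4 tested genes with the smallest p.

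Values were floored and log2 transformed as described in the report. Differences were fitted over all 545 tested probe sets with limma 3.58.1 in R 4.3.3 (lmFit, eBayes, treatment as the only term), with Benjamini-Hochberg adjustment over all of them and a threshold of 0.05. The code was tested on simulated data. Exact permutation tests used all 12870 divisions of the arrays into 8 and 8. The log2 control ratios differed by -0.40 for beta-actin (mefloquine minus DMSO, exact permutation p = 0.672) and -0.24 for GAPDH (exact permutation p = 0.494), within the spread between arrays. Without DMSO control 3 they differed by 0.08 (exact permutation p = 0.652) and -0.00051 (exact permutation p = 0.994). No pair of arrays shared more than 0.1% of its values. Array signals have no counting depth, so 8 arrays per group limit the precision. Motifs were searched as letters on both strands and chosen with the values known.

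Alternatives were quantile and median scaling, a floor at percentile 10 or 40, an offset in its place, other filters, eBayes with trend and robust settings, the replicate number as a block, the replicate range as a term, the GAPDH ratio as a covariate, and arrays left out. The ranges alone and the fit without mefloquine 1 and 2 were added after seeing the data.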

Additional observations from a re-analysis of the deposited data

Results flagged for a closer look

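For each tested member and both control ratios, Dixon's test set the most extreme of 8 log2 values against the one next to it, in each treatment group. It singled out 26 of 104 cases (25%). For independent cases the test would single out about 5%. These cases share arrays, and some values lie at the floor. The share over all tested probe sets is not given here, so 25% is not a result about the members. Over all 545 tested probe sets DMSO control 3 held the highest DMSO value for 24% and the lowest for 39.8%. DMSO control 3 accounted for 18 of the 26. Values are given on the log2 scale with the nearest other array of the group.

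In 12 of these DMSO control 3 was the high one. In complex I they were Ndufa3 at 11.51 (nearest 9.41), Ndufa5 at 13.21 (nearest 12.69), Ndufa6 at 13.26 (nearest 12.78), Ndufb2 at 13.54 (nearest 12.96), Ndufb4 at 13.38 (nearest 13.06) and Ndufb8 at 14.37 (nearest 14.05). Both tested probe sets of Ndufab1 stood out, at 13.57 (nearest 12.97) and 12.94 (nearest 11.15). In complex IV they were Cox4i1 at 16.43 (nearest 15.53) and Cox6a1 at 15 (nearest 14.43). The log2 control ratios of the array were 4.42 for beta-actin and 2.21 for GAPDH.

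DMSO control 3 lay below the others for Ndufb6 at 10.94 (nearest 12.10), Ndufc1 at 11.20 (nearest 11.64), Uqcrfs1 at 12.08 (nearest 13.74) and 13.16 (nearest 13.71), Cox7a2l at 11.22 (nearest 12.28) and Cox8a at 13.87 (nearest 14.25).

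Mefloquine 1 and 2 accounted for 4. Mefloquine 1 was low for Ndufc1 at 10.94 (nearest 11.47) and Cox8a at 11.92 (nearest 12.97). Mefloquine 2 was high for Ndufa6 by rc_AI229924_at at 10.81 (nearest 9.68) and low for Cox6a2 at 11.39 (nearest 11.76). The other 4 were on other arrays: Ndufb3 was low on DMSO control 7 at 11.33 (nearest 11.85), Ndufc1 low on DMSO control 5 at 12.44 (nearest 12.63), Ndufa9 low on mefloquine 8 at 11.03 (nearest 11.62) and Cox7a2l low on mefloquine 6 at 11.93 (nearest 12.38).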

How the results depend on the processing

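In each of the 31 alternatives 0 members passed at an adjusted p under 0.05 (limma), the lowest adjusted p of a member lying between 0.2208 and 0.9992, and at most 2 had an unadjusted p under 0.05. The adjusted p of 0.2208 (limma) was that of Ndufs5 in replicates 6 to 8 alone. Over all tested probe sets 7 were called, against 4 after quantile normalization, with either other floor and with the offset, 3 when all arrays had to exceed the floor and 1 in replicates 6 to 8 alone. Leaving out 1 array gave 4 to 8 calls, with 4 without DMSO control 2, 6, 7 or 8 or mefloquine 3 or 4. The member median of -0.08 ran from -0.09 to -0.03 with 1 array left out, the last without DMSO control 3. It was -0.11 after median scaling and -0.03 with the GAPDH ratio as a covariate. The count of members that differed by replicate range, 3, was 7 without the 3 arrays that stood apart. Of the member differences 20 of 50 changed sign without those 3 arrays and 28 in replicates 6 to 8 alone, though none of them passed before or after. The shares over all tested probe sets are not given here. The median absolute difference of the members, 0.12, was close to their median SE of 0.13, and it was 0.13 over all tested probe sets.

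With the replicate block 8 probe sets and 0 members were called and the member median was -0.08. Same-numbered arrays had correlated deviations of 0.057 to 0.593, and 2 of 8 arrays correlated best with their own number, so the numbers were not taken to pair the samples. Dim probe sets limit the rest: 15 of 65 were not tested. With the floor at percentile 10, M27467_at of Cox6c was tested and had an adjusted p (limma) of 0.7068, the lowest of the members there.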

Other observations

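The rule for members leaves out 3 probe sets whose annotation joins a respiratory chain gene with its pseudogene, so that no single gene can be named for them. L38437_at is annotated to Ndufs6 and Ndufs6-ps1, and both rc_AA946040_at and rc_AI104035_s_at to Cox6b1 and Cox6b1-ps1. All 3 were above the floor on all 16 arrays. Their log2 differences, mefloquine minus DMSO, were -0.11 ± 0.23 (SE) for L38437_at, -0.34 ± 0.15 for rc_AA946040_at and -0.23 ± 0.12 for rc_AI104035_s_at, each with an adjusted p of 0.982 (limma). Without DMSO control 3 they were 0.08, with the sign turned, -0.35 and -0.15. The differences of both probe sets of Cox6b1 and its pseudogene were thus negative with and without that array, though neither passed on all arrays.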
